A study of Mus musculus with 8 samples.

Results

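The melanocyte and Schwann lineage genes described here are 8 genes expressed by pigment cells and glia of the skin: Dct, Tyr, Tyrp1, Pmel, Mlana, Mitf, Sox10 and Erbb3. They were chosen by gene symbol, among 36717 features on the array, as markers of neural crest cells that a culture of newborn skin may hold beside its fibroblasts. There were 11 probes that carried them, and 6 of the 8 genes passed the filter on dim probes, among 17093 features that did. The cells were dermal cells of newborn C57BL/6 mice, freed from skin with dispase and collagenase, cultured, and labelled as fibroblasts. In 4 samples (1, 3, 6 and 8) they were transfected with control oligonucleotides, and in 4 (2, 4, 5 and 7) with oligonucleotides that mimic miR-127-3p, a microRNA. For samples 3 and 6 the treatment label names either agent, and their group was taken from title and source name, which both say control. All groups shared strain, age class, tissue and culture, and no genetic change is named in the labels. The labels do not say that the samples of a group came from separate animals, so p-values measure only the spread between these samples. RNA was hybridised in a single dye (Cy3), 1 sample per array, and the series' title sets the work in myofibroblast senescence.

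The mimic stands for the mature miR-127-3p, whose 22 bases are given here with the seed (bases 2 to 8, the part that pairs with target messengers) in capitals. RefSeq places the mature sequence on the plus strand of the mouse assembly GRCm38.p6.
miR-127-3p, chr12:109592888-109592909: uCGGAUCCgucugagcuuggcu

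Melanocytes and Schwann cells both arise from the neural crest, and in skin some melanocytes come from Schwann cell precursors that follow the nerves. The transcription factor SOX10 is kept in both lineages and activates Mitf, the master regulator of the melanocyte. MITF binds a short sequence in the promoters of the pigment enzyme genes Tyr, Tyrp1 and Dct, and it also drives Pmel and Mlana. ERBB3, the receptor for neuregulin on crest cells, carries the survival signal of Schwann cell precursors.

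Transcripts of melanocyte genes were measurable in the cultures, and most of the members stood higher on average with the mimic, although only Pmel passed the test. In the limma fit over all features, 1 of the 6 tested members rose and 0 fell, at a Benjamini-Hochberg adjusted threshold of 0.05, where 34.2% of all features were called, 15.9% as higher with the mimic and 18.3% as lower. The median log2 fold change (mimic minus control) of the 6 tested members was 0.93, beside 0.02 for all features. The brighter Tyr probe and the Erbb3 probe, which were not tested, had lower means with the mimic, at levels near background. In 5 of the 6 the mean was higher with the mimic, as it was for 52.4% of all features. The groups' arrays overlapped for all 6 tested members, whereas for 34.2% of all features they did not. With an unadjusted p under 0.05 there was 1 member, against 44.8% of all features. In these bulk cultures a change in the number of melanocytes and a change in the RNA per cell cannot be told apart.

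The markers of the labelled cell type were present: all 12 fibroblast genes of the list, among them Col1a1, Thy1 and Pdgfra, were well above background on all 8 arrays. Each array held between 20756 and 23472 probes well above background, and no value was saturated. A probe's level is its log2 processed signal minus the 75th percentile of its array, or that signal as a percentage of the percentile. It serves to compare arrays for 1 probe, not probes with one another.

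Dct encodes dopachrome tautomerase, a melanin enzyme that is switched on early in melanoblasts, and its brighter probe was well above background on all 8 arrays. Relative to the array's 75th percentile the signal was 137.8%, 121.0%, 137.8% and 34.4% in control samples 1, 3, 6 and 8, and 115.9%, 326.7%, 106.4% and 224.7% in mimic samples 2, 4, 5 and 7. Control 8 was the low array and mimic 4 and 7 the high ones, while mimic 2 and 5 lay below 3 of the controls. The log2 level was -0.08 ± 0.97 (SD, n = 4) in controls and 0.79 ± 0.78 (SD, n = 4) with the mimic. That difference of 0.88 (SE 0.53) did not pass the test (limma adjusted p = 0.230). The second Dct probe, well above background on 7 arrays, repeated the order of the extremes, with 53.9%, 57.3%, 46.0% and 19.7% in controls and 55.6%, 140.7%, 51.2% and 100.8% with the mimic. Its log2 difference was 0.96 (SE 0.42), with an adjusted p of 0.112 in the limma fit of single probes, in which 33.8% of probes were called.

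Tyrp1, the tyrosinase-related enzyme that works late in the synthesis of brown-black melanin, varied widely between arrays. Its relative signal was 54.0%, 55.0%, 58.5% and 11.1% in control samples 1, 3, 6 and 8, and 41.5%, 126.5%, 56.1% and 119.4% in mimic samples 2, 4, 5 and 7. The other 3 controls were close together, control 8 was not well above background, and mimic 4 and 7 alone exceeded the controls. The highest array exceeded the lowest, control 8 near background, 11.4-fold, against 2.63-fold after normexp background correction, which draws dim signals together; for Dct these were 9.50-fold and 4.50-fold. The group difference was 1.05 on the log2 scale (SE 0.59) and was not called (limma adjusted p = 0.207), and with normexp it was 0.45.

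Tyr encodes tyrosinase, the rate-limiting enzyme of melanin synthesis, and it was not tested because neither probe passed the filter. The brighter probe was well above background on controls 3 and 6 and on mimic 2 only, with 13.1%, 25.4%, 30.9% and 8.10% in controls and 16.4%, 18.0%, 4.90% and 14.2% with the mimic. The other Tyr probe was well above background on 0 arrays. The high pair among the controls and the low control 8 and mimic 5 are values near background, so no fold is given.

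Pmel, the protein that forms the fibrils on which melanin is laid down in melanosomes, was the member that rose. Its relative signal was 27.3%, 34.3%, 31.8% and 16.7% in control samples 1, 3, 6 and 8, and 45.2%, 91.9%, 33.0% and 75.8% in mimic samples 2, 4, 5 and 7. Mimic 2, 4 and 7 were above every control, and mimic 5 lay among the controls. Log2 levels of -1.91 ± 0.47 (SD, n = 4) and -0.82 ± 0.68 (SD, n = 4) gave a difference of 1.10 (SE 0.35), a fold of 2.14, with a limma adjusted p of 0.0407. The call was lost when any of control 1, 6 or 8 or mimic 2, 4 or 7 was left out, with log2 differences of 0.86 to 1.21 and adjusted p-values of 0.0514 to 0.103. Within slide row 1 the difference was 1.07 and within row 2 it was 1.12 (limma adjusted p = 0.135 and 0.232), and normexp gave 0.50 (limma adjusted p = 0.0754). Each slide column held 1 control and 1 mimic sample, and with column as a block the limma adjusted p was 0.0831.

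Mlana, a small melanosomal membrane protein also known as MART1, was well above background on 5 arrays. Its relative signal was 10.2%, 17.9%, 22.5% and 4.60% in control samples 1, 3, 6 and 8, and 29.7%, 32.5%, 8.00% and 36.2% in mimic samples 2, 4, 5 and 7. Mimic 2, 4 and 7 were above every control, as for Pmel, and mimic 5 was below 3 of the 4. The log2 difference of 0.97 (SE 0.61) did not pass the test (limma adjusted p = 0.248), and with normexp it was 0.37.

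Sox10, the crest transcription factor shared by melanocytes and glia, was well above background on 7 arrays, control 8 being the exception. Its relative signal was 36.5%, 29.8%, 32.9% and 18.4% in control samples 1, 3, 6 and 8, and 37.7%, 65.4%, 29.4% and 57.6% in mimic samples 2, 4, 5 and 7. Mimic 4 and 7 stood highest, mimic 2 was barely above control 1, and mimic 5 was below 3 controls. The log2 difference was 0.67 (SE 0.30, limma adjusted p = 0.116), and 0.35 with normexp. Without mimic 5 it was 0.87 and passed the test (limma adjusted p = 0.0440).

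Mitf was well above background on all 8 arrays by both of its probes, and the brighter one did not follow the pigment genes. The brighter probe gave 191.6%, 120.0%, 273.9% and 200.0% in control samples 1, 3, 6 and 8, and 202.3%, 177.0%, 113.5% and 258.0% in mimic samples 2, 4, 5 and 7. Control 6 was highest and mimic 5 lowest, and control 8 was in the middle of its group. The log2 difference was -0.07 (SE 0.30, limma adjusted p = 0.886), and it turned positive without control 6 (0.11), without mimic 5 (0.16), within slide row 1 (0.32) and with the 2 probes averaged (0.10). The other probe had a log2 difference of 0.27 (SE 0.35, limma adjusted p = 0.596). It gave 47.4%, 27.5%, 71.2% and 57.8% in control samples 1, 3, 6 and 8, and 68.7%, 73.7%, 31.6% and 70.4% in mimic samples 2, 4, 5 and 7. On that probe mimic 4 was the highest array and mimic 5 the lowest mimic sample, as for Dct, but control 3 and not control 8 was the lowest array. Mitf has several promoters, used by different cell types, and the files name the same transcript for both probes; whether these read other Mitf transcripts too was not examined.

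Erbb3, which pairs with ERBB2 to read neuregulin, was well above background only on control 6. Its relative signal there was 20.1%, against 3.20% to 4.20% on the other controls and 2.80% to 4.70% with the mimic. It was not tested.

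**Figure D1:**
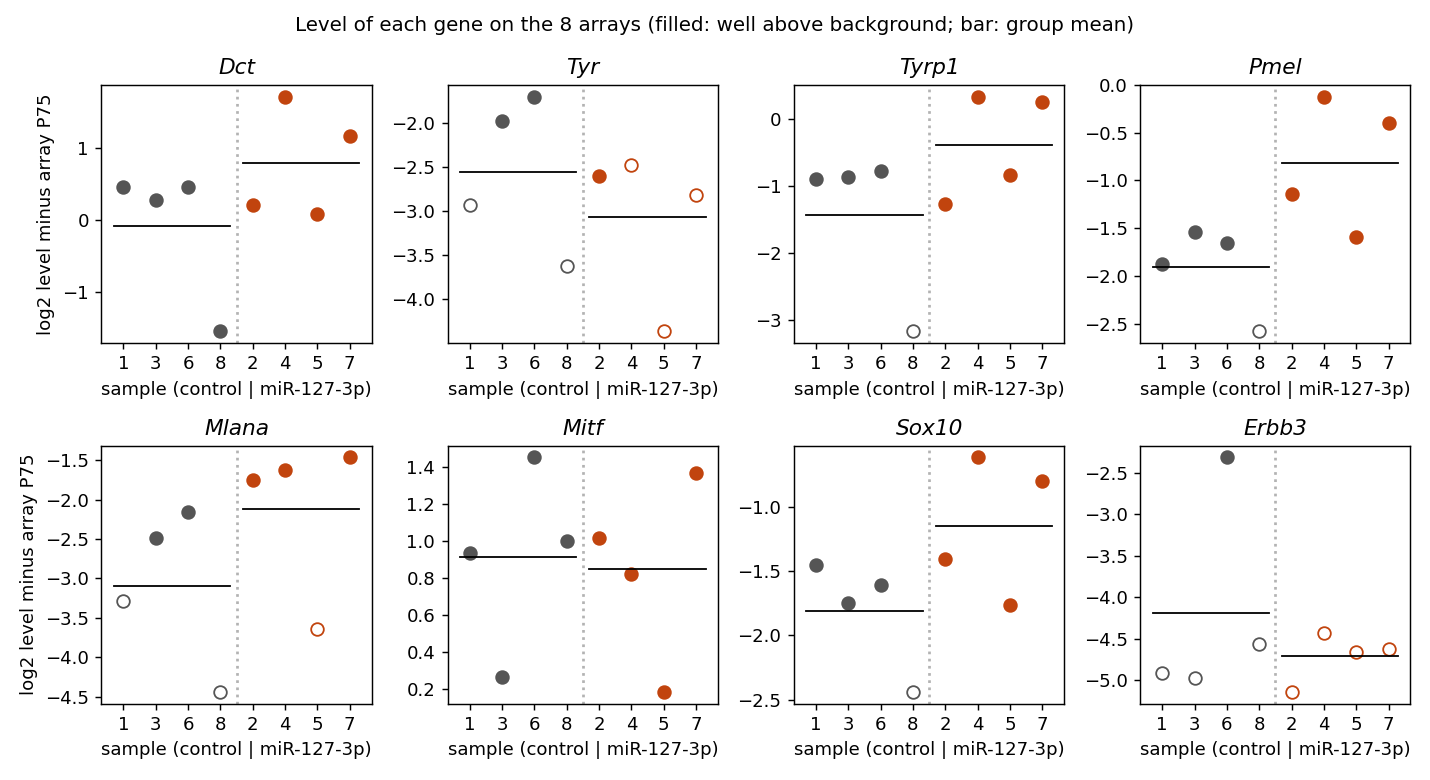
Level of each of the 8 genes by array (log2 processed signal minus the array's 75th percentile, vertical axis of its own in each panel), for 4 control samples (grey) and 4 mimic samples (orange). Filled points are well above background, open points are not, and bars are group means; control 8 is the lowest control for Dct, Tyr, Tyrp1, Pmel, Mlana and Sox10, and mimic 4 and 7 are the highest arrays for Dct, Tyrp1, Pmel and Sox10.

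**Figure D2:**
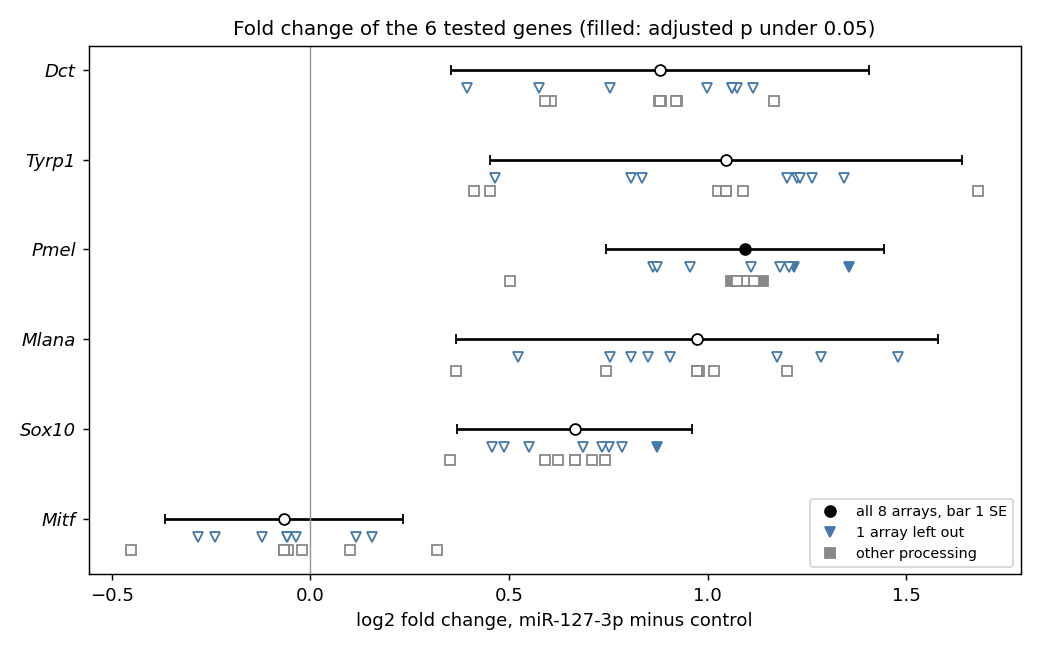
Log2 fold change (mimic minus control) of the 6 tested genes with all 8 arrays (black, bar 1 SE), with 1 array left out (blue) and under other processing (grey), filled where the adjusted p was under 0.05. Dct, Tyrp1, Pmel, Mlana and Sox10 stay above 0 throughout, Mitf lies on both sides of 0, and filled points occur only for Pmel and, in 1 case, Sox10.

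The members varied widely between arrays of 1 group. The within-group SDs of the 6 tested members ranged from 0.44 to 1.16 in controls and from 0.50 to 1.02 with the mimic, beside medians of 0.17 and 0.16 over all features. Between 90.5% and 99.1% of all features had a smaller SD in the same group. These ranks are a description, and no test was made of them.

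Several members were low or high on the same arrays. Control 8 was the lowest of all 8 arrays for 5 of the 6 tested members (Dct, Tyrp1, Pmel, Mlana and Sox10), a place it held for 20.8% of all features. Against the mean of the other 3 controls its log2 level differed by -2.32 for Tyrp1, -1.94 for Dct, -1.80 for Mlana, -0.89 for Pmel and -0.84 for Sox10. Only 0.0761% of all features lay further down on that array than Tyrp1, 0.135% further than Dct and 1.88% further than Sox10. On that array Dct was well above background, and Tyrp1, Pmel, Mlana and Sox10 were not, so for these 4 the sizes and shares set a value near background against measured ones. By its brighter probe Mitf was 0.12 above the other controls there.

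Among the mimic samples, mimic 4 was the highest of all 8 arrays for Dct, Tyrp1, Pmel and Sox10, 4 of 6 members against 13.5% of features. Mimic 7 was highest for Mlana. Mimic 5 was the lowest of its group for 5 of 6 members, against 24.9% of features, the exception being Tyrp1, for which mimic 2 was lowest. Its log2 level differed by -2.02 from the mean of the other mimic samples for Mlana, -1.04 for Pmel, -0.94 for Dct and -0.89 for Mitf. Mlana was not well above background on mimic 5, so its size is that of a value near background.

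The mimic-control difference depended on these arrays. Without control 8 the log2 difference of Dct was 0.39, of Tyrp1 0.47, of Mlana 0.52, of Sox10 0.46 and of Pmel 0.87, and 0 members passed the test. Leaving out mimic 4 also ended every call, with 0.57 for Dct and 0.86 for Pmel. Without mimic 5, 2 members passed, Pmel at 1.36 (limma adjusted p = 0.0139) and Sox10.

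Other measures of control 8 and mimic 4 were these. Control 8 had 20886 probes well above background and mimic 4 had 20756, the 2 lowest numbers. On control 8, 5 of the 6 tested members were the lowest of all 8 arrays, a place it held for 20.8% of all features. On mimic 4, 4 of 6 were the highest of all 8, against 13.5% of features. The summed relative signal of the 8 members, in multiples of the array's 75th percentile, was 4.74, 4.06, 6.08 and 2.98 in controls 1, 3, 6 and 8 and 4.92, 8.43, 3.55 and 7.90 in mimic samples 2, 4, 5 and 7. Mitf made up a large part of the sums of controls 8 and 6, at 200.0% and 273.9% of the percentile, so these are not sums of the pigment genes alone. Control 8 also had the lowest sum of the 8 arrays for keratinocyte markers (11.8, against 15.4 to 22.1 in the other controls), for leukocyte markers (34.0) and for fibroblast markers (1279). Mimic 5, low for the members, had the highest keratinocyte sum (28.7). The part of these in the members' values was not tested.

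**Figure D3:**
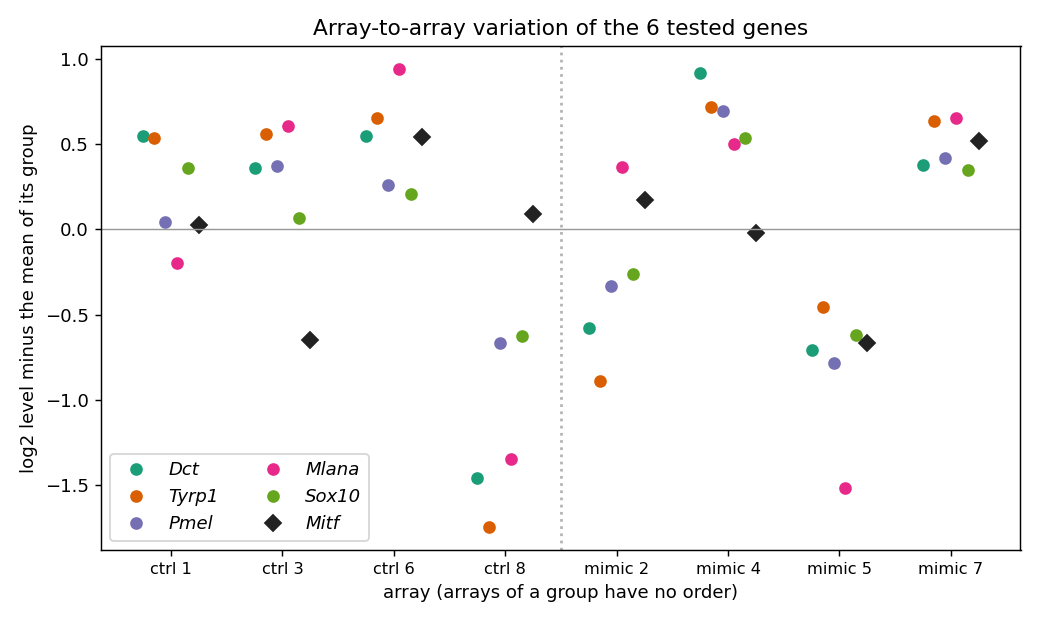
Log2 level of the 6 tested genes on each array minus the mean of the gene's own group (vertical axis), for control samples 1, 3, 6 and 8 and mimic samples 2, 4, 5 and 7. Dct, Tyrp1, Pmel, Mlana and Sox10 lie below their group mean on control 8 and mimic 5 and above it on mimic 4 and 7. The brighter probe of Mitf (black diamonds) is at 0.09 on control 8 and near 0 on mimic 4.

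To describe which genes varied like the pigment genes, each gene's deviations from its group means over the 8 arrays were set against the mean deviation of Dct, Tyrp1, Pmel and Mlana. Sox10, which is not part of that mean, had a Pearson r of 0.94, and 0.81 over the 6 arrays left without control 8 and mimic 5, the 2 farthest from the middle. Mitf, read by its brighter probe, had 0.28, and 0.00 without those arrays. The 5 nearest genes outside the members were Ugt1a10 (0.99), Tmem208 (0.99), Atpif1 (0.98), Lyzl4 (0.98) and G6pdx (0.98), and their r was between 0.90 and 0.95 without the 2 arrays. They were picked for the highest r over all 8 arrays, so their r over 6 of the same arrays is no independent check. Ugt1a10 shares exons with other genes of the Ugt1a cluster, so its probe may read several of them. Of 12031 features with a symbol, 0.615% had an r over 0.9, and the median r was 0.00. These correlations rest on 8 arrays that share their scaling, and the nearest 5 deviated far less than the pigment genes, with SDs of 0.09 to 0.33.

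Since Dct and Tyrp1 varied together, their promoters are shown, each from the RefSeq table of GRCm38.p6 with 250 bases before and 50 after an annotated start. The table matched 4 members (Dct, Tyr, Tyrp1 and Mitf, the last with 3 windows), and Pmel, Mlana, Sox10 and Erbb3 were not matched. The longest string that the windows of Dct, Tyr and Tyrp1 share on the gene's strand, in capitals below, is GTCATGTGCT. It holds the core of the M-box, TCATGTG, the element through which MITF is known to act on these 3 genes.
Dct, minus strand of chr14:118052354-118052433: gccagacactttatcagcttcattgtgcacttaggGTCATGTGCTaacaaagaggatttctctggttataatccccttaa
Tyr, minus strand of chr7:87493491-87493570: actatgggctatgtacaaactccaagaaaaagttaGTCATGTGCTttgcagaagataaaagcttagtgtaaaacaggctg
Tyrp1, plus strand of chr4:80834130-80834209: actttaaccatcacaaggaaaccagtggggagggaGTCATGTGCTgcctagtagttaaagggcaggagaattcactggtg

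The capitals begin 152 bases before the start in Dct, 23 in Tyr and 48 in Tyrp1. Searched on both strands, the 10-base string occurred in 61 of 32851 promoter windows of the table (0.186%), the 7-base core in 3.77% and its inner E-box CATGTG in 14.2%. Dct holds a second core on the opposite strand, 232 bases before the start. Of the melanosome genes with a window, 4 of 17 held the core (Slc24a5, Trpm1, Hps1 and Slc7a11), and of the Schwann cell genes 0 of 15 did. The core was shared by Tyrp1 and Dct, which were high on mimic 4 and 7, and by Tyr, whose values there were not well above background. The 4 melanosome genes with the core did not all vary like the pigment genes. Over the 8 arrays Slc7a11 had an r of 0.63 to their mean deviation, Slc24a5 -0.21, Hps1 -0.31 and Trpm1 -0.81. The part of the core in the array pattern was not tested. None of the 3 Mitf windows held it.

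Of the Mitf windows, the most downstream held the cAMP response element TGACGTCA, in capitals below, through which melanocortin signalling is known to raise Mitf in melanocytes. It begins 153 bases before the start, and 1.79% of windows hold it.
Mitf, plus strand of chr6:97991595-97991672: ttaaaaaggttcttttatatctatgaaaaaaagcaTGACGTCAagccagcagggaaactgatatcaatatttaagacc
The core bound by SOX proteins, ACAATG, was found in the Dct window alone among these members, on the opposite strand, and in 12.6% of all windows. A match describes the letters in these windows and shows no binding.

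Among the other genes of melanosomes and pigment transport, Gpnmb rose and Ap3b1 fell. Of 21 listed, 15 were tested, so 13.3% of those tested were called, beside 34.2% of all features, with a median log2 fold change of 0.08. Gpnmb, a melanosomal glycoprotein that macrophages also make, rose by 1.78 (SE 0.31, limma adjusted p = 0.00309), from 2.23 ± 0.58 (SD, n = 4) to 4.02 ± 0.44 (SD, n = 4), and every mimic array exceeded every control. Control 8 was the highest control for Gpnmb, at 2.98, where it was the lowest for the pigment genes. Ap3b1, a subunit of the adaptor that sorts cargo to melanosomes and lysosomes, fell by 0.31 (SE 0.08, limma adjusted p = 0.0173), and the call was lost under 5 of 21 alternatives, among them without mimic 4 (adjusted p = 0.0535) and with column as a block (limma adjusted p = 0.0800). The pigment cell genes Oca2, Slc45a2 and Gpr143 were well above background on no array, and neither were Rab27a and Tpcn2.

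Receptors and factors of the melanoblast and crest gave 0 that rose and 3 that fell among 7 tested of 14 listed. That is 42.9%, beside the 34.2% of all features called and the 18.3% called as lower. Ednrb, the endothelin receptor that melanoblasts need, fell by 0.92 (SE 0.27, limma adjusted p = 0.0308). It was well above background on 3 controls and 1 mimic sample, with normexp its difference was -0.14 (limma adjusted p = 0.455), and the call was lost without control 1 or 8 or without mimic 4, 5 or 7 (adjusted p from 0.0581 to 0.0777). Control 8 was the highest array for Ednrb at -1.27, the opposite of its place for Dct. The other 2 that fell were the crest and mesenchymal factors Snai2 (-0.59, SE 0.15, limma adjusted p = 0.0172) and Zeb2 (-0.30, SE 0.10, limma adjusted p = 0.0459), and Zeb2 was no longer called under 14 of 21 alternatives, 6 of them with 1 array left out (control 1, 6 or 8, or mimic 2, 4 or 5; adjusted p from 0.0501 to 0.113). Kit and Mc1r, receptors on which melanocytes depend, were well above background on no array, like Foxd3, Tfap2b and Alx1. The MITF relative Tfe3 had a log2 difference of 0.24 (SE 0.09, limma adjusted p = 0.0641), with every mimic sample above every control. It passed under 4 of 21 alternatives (limma adjusted p from 0.0204 to 0.0424), and 1 of its 2 passing probes was called in the fit of single probes. Tfe3 was the 1 tested gene of the 3 listed relatives.

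Part of the tested genes of the Schwann cell list rose. Of 22 listed, 13 were tested, 4 rose and 0 fell, with a median log2 fold change of 0.31. That is 30.8% of those tested, beside 34.2% of all features called, 15.9% as higher with the mimic and 18.3% as lower. Over the 21 alternatives, 2 to 5 rose and 0 to 1 fell. S100b, a calcium-binding protein of glia that other cell types also make, was at -0.34, -0.18, -0.57 and -0.87 in control samples 1, 3, 6 and 8, and at 1.60, 1.93, 1.39 and 1.86 in mimic samples 2, 4, 5 and 7. The groups were far apart, and the rise of 2.18 (SE 0.17, limma adjusted p = 6.01e-05) passed the test under all 21 alternatives. Gldn, a gliomedin of the node of Ranvier, rose by 1.72 (SE 0.25, limma adjusted p = 0.00127) and also passed in every alternative that tested it, with 0.77 under normexp.

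Fabp7, a fatty acid binding protein of glial precursors, rose by 1.10 (SE 0.23, limma adjusted p = 0.00724), and Gap43, a growth cone protein that immature Schwann cells also express, by 0.76 (SE 0.14, limma adjusted p = 0.00375). Each was higher in 4 of 4 mimic samples than in any control. Cd9 of the same list, named after its values were seen, had a log2 difference of -0.24 (SE 0.08, limma adjusted p = 0.0573). Every mimic sample was below every control for Cd9. Pmp2, Pou3f2, Gfap, Cdh19 and Sox2 were well above background on no array. Over the 13 tested genes of this list, the r between deviations from group means and those of the pigment genes ran from -0.61 to 0.88, and from -0.70 to 0.99 without control 8 and mimic 5.

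Around Erbb3, the receptor list gave 2 that rose and 1 that fell among 4 tested of 6. That is 75% of those tested, in a short list, beside 34.2% of all features called. Egfr, the founding receptor of the family, rose by 0.83 (SE 0.11, limma adjusted p = 0.000928), with 3 of 3 passing probes called. Errfi1, its feedback inhibitor, was higher by 0.52 (SE 0.17, limma adjusted p = 0.0419), a call that was lost without control 1 or 8 or without mimic 2, 4, 5 or 7 (adjusted p from 0.0505 to 0.107). Erbb2, the partner of ERBB3, fell by 0.32 (SE 0.08, limma adjusted p = 0.0179), and the call was lost under 5 of 21 alternatives, among them without mimic 4 (adjusted p = 0.0522) and with column as a block (limma adjusted p = 0.0690). Erbb4 and Grb7 were well above background on no array.

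Of 11 ligands of that family, 3 were tested, 2 rose and 0 fell. So 66.7% of these few were called, beside 34.2% of all features and the 15.9% called as higher. Nrg1, the neuregulin that ERBB3 binds, was at 1.32, 0.44, 1.03 and 0.79 in control samples 1, 3, 6 and 8 and at 2.10, 2.09, 1.63 and 1.94 in mimic samples 2, 4, 5 and 7. Every mimic sample exceeded every control, and the rise was 1.05 (SE 0.19, limma adjusted p = 0.00374). Ereg, epiregulin, rose by 1.58 (SE 0.31, limma adjusted p = 0.00488), and Hbegf differed by 0.26 (SE 0.25, limma adjusted p = 0.458). The ligand Nrg1 was higher with the mimic while its receptor Erbb3 was near background on 7 of 8 arrays.

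Of 13 secreted factors that act on melanocytes, 12 were matched to the array and 9 tested, and Fgf2, a melanocyte mitogen, was the 1 that rose, by 1.51 (SE 0.19, limma adjusted p = 0.000516), and by 0.78 with normexp. None fell. The stem cell factor gene Kitl, which fibroblasts and keratinocytes supply to melanocytes, and the endothelin gene Edn1, both named after their values were seen, had log2 differences of 0.46 (SE 0.17, limma adjusted p = 0.0687) and 0.66 (SE 0.23, limma adjusted p = 0.0587). Kitl passed the test without control 8 (0.59, limma adjusted p = 0.0260) or without mimic 5 (0.57, limma adjusted p = 0.0344), and Edn1 without mimic 2 (0.84, limma adjusted p = 0.0186) and under 4 other alternatives, normexp among them (0.48, limma adjusted p = 0.0476).

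**Figure D4:**
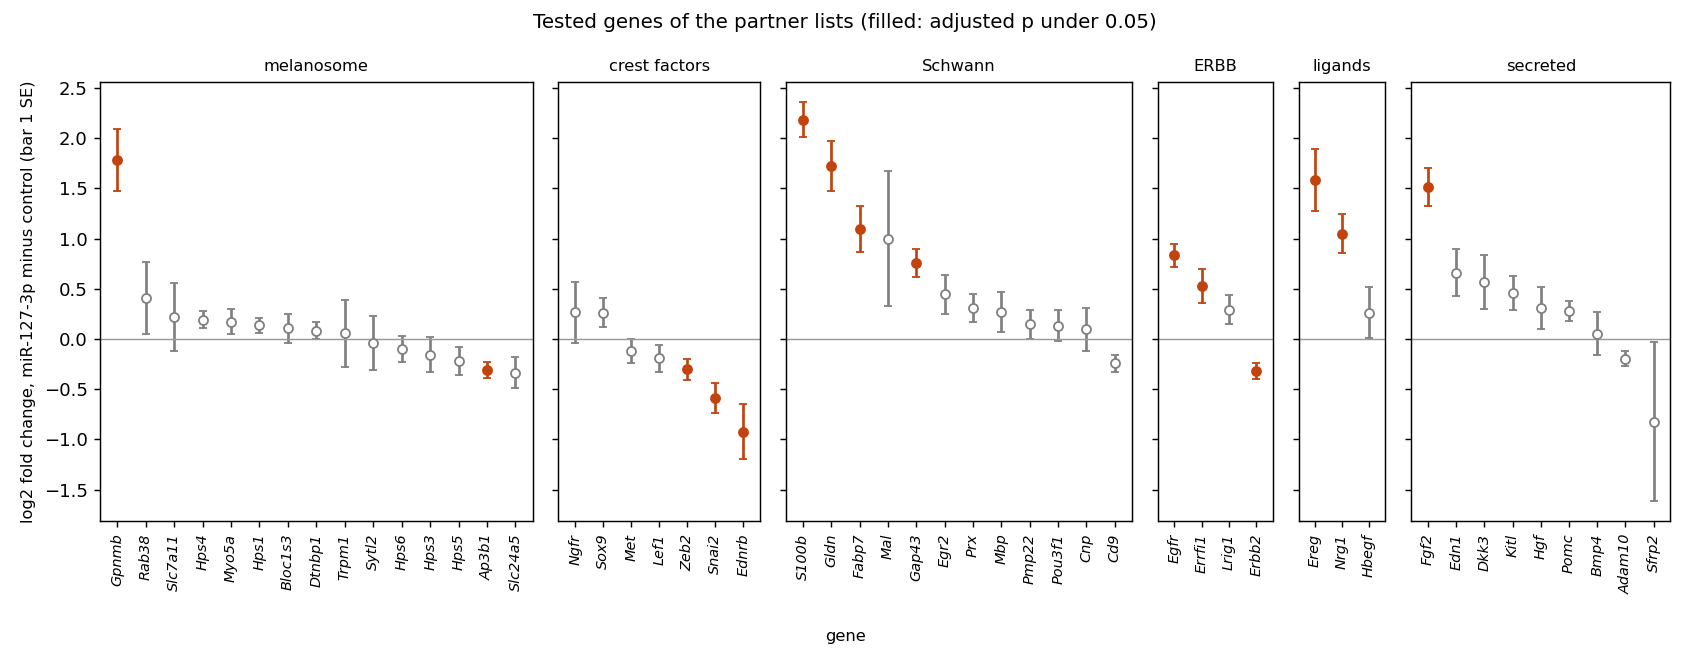
Log2 fold change (mimic minus control, vertical axis, bar 1 SE) of tested genes of 6 partner lists, filled orange where the limma adjusted p was under 0.05. S100b, Gldn, Gpnmb, Ereg and Fgf2 rose by more than the others, and the 3 crest factors Zeb2, Snai2 and Ednrb lie below 0.

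Markers of other cell types of skin were read on the same arrays. Beside the counts below, 34.2% of all features were called, 15.9% as higher with the mimic and 18.3% as lower. Of 7 tested leukocyte markers, 6 rose and 0 fell, with Lyz2 at 1.79 (SE 0.18), Csf1r at 1.04 (SE 0.14) and Cd68 at 1.30 (SE 0.25). The 3 passing probes of Csf1r had log2 differences from 0.14 to 1.32, and 2 of them were called in the fit of single probes. Ptprc, however, was well above background on no array. The summed signal of the list was 34.0 to 43.5 in controls and 59.2 to 69.5 with the mimic. Itgam, named after its values were seen, was the brightest of the list and weighs most in that sum. Itgam rose by 0.51 (SE 0.16, limma adjusted p = 0.0366), with arrays of the groups overlapping. Macrophages also express Gpnmb, and the part of leukocytes in its rise was not tested. Of 6 tested keratinocyte markers, 2 rose (Krt10 and Lor) and 0 fell (0 rose with slide column as a block, and 1 to 4 with 1 array left out), with summed signals of 11.8 to 22.1 in controls and 16.7 to 28.7 with the mimic. Endothelial markers gave 1 of 3 that rose (Vwf), neuron markers 1 of 3 (Snap25, a call lost under 12 of 21 alternatives), and mast cell and skeletal muscle markers 0 of 2 and 0 of 5. Of the fibroblast markers 2 rose (Dcn and Prrx1) and 1 fell (Pdgfra), with Dcn no longer called without control 1 or mimic 2, 4 or 7 (adjusted p from 0.0702 to 0.0823) or with column as a block (limma adjusted p = 0.0573). With 1 array left out, 1 to 2 of the fibroblast markers rose and 1 to 2 fell. Their sum was 1279 to 1496 in controls and 1415 to 1514 with the mimic. The part of these cell types in the members' differences was not tested.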

How the data were processed

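Each of the 8 samples was read on its own 1-colour array. Per the file headers, the deposited scanner files come from Agilent Feature Extraction (version 11.5.1.1) and give each spot's processed intensity, from which background was subtracted. The authors' series table holds log2 values that differ from the logarithm of this intensity by a fixed amount on each array; the design text names GeneSpring 14.9.1.

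Here control and outlier spots were left out, spots of a probe averaged as log2 values, and each array's 75th percentile subtracted, with no pseudocount. Accessions were named through a RefSeq table (GRCm38.p6) for 28331 of 55681 probes. A gene's brightest probe among those well above background on at least 4 arrays was tested with limma 3.58.1 in R 4.3.3 (lmFit, eBayes, two-sided, Benjamini-Hochberg over 17093 features, threshold 0.05). The fit was tested on simulated data with known changes. The number of arrays limits the precision.

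The 21 alternatives changed background correction (normexp on median signals, offset 50, as the files hold no mean signal), scaling, filter, probe choice, variance model, slide row or column, or left out 1 array. Results of some listed genes are not reported here. Members and lists were chosen with earlier results of these data known. Named genes are the members, up to 4 called genes per pathway list plus ligands, receptors or paralogs, up to 3 per marker list, and the 5 nearest in pattern.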

Additional observations from a re-analysis of the deposited data

Results flagged for a closer look

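In 78 groups of 4 arrays (named genes by group) the most extreme array was set against its nearest neighbour, as the share of the group's range that the gap takes. Chance puts about 1 of 20 independent groups above Dixon's 95% critical value for this share, and 7 were above it. The groups come from the same arrays and hold genes that varied together, so the 7 cannot be judged against that rate. Among controls, control 8 stood apart at the low end for Dct (0.906), for Tyrp1 (0.952) and for the neuron marker Snap25 (0.858). Control 6 stood apart at the high end for Erbb3 (0.844), at a level of -2.31 against -4.56 for the next array. For Hbegf it was control 3 at the high end (0.848). Among mimic samples, mimic 5 was apart at the low end for Mlana (0.868), at -3.64 against -1.75, and at the high end for Ap3b1 (0.912). Tyrp1 on control 8, Mlana on mimic 5 and Erbb3 on controls 1, 3 and 8 were not well above background.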

How the results depend on the processing

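Dct, Tyrp1, Mlana, Sox10 and Pmel kept their direction under every alternative that tested them. The number of members called was 1 with all arrays, 0 with normexp, with a filter of at least 1 array, with no filter, with slide column as a block and within row 1 or row 2, and 0 to 2 with 1 array left out. It was also 0 with a filter of all 8 arrays, under which Dct and Mitf were tested and Pmel was not. Genes called numbered 5851 with all arrays, 3657 with no filter, 1759 within row 1, 1611 within row 2 and 4320 to 5789 with 1 array left out; within a row each group has 2 arrays. The sign turned for Mitf (0.10 with probes averaged, 0.32 within row 1, and from -0.28 to 0.16 with 1 array left out, above 0 without mimic 5 and, at 0.11, without control 6) and for Hbegf (-0.27 within row 1); the cause was not tested. No paired analysis was possible because the sample numbers are not shared between groups, other than by position on the slide: each column held 1 control and 1 mimic sample, and with column as a block 4008 genes were called. Signal over background limits Tyr and Erbb3, for which no difference was tested, and Tyrp1, Pmel, Mlana, Sox10, Ednrb, Gldn, Gap43, Fgf2, Kitl, Lor and Vwf, whose log2 difference was over 1.5 times smaller with normexp.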
